A study of Homo sapiens with 9 samples.

Results

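The APOBEC3 genes and SAMHD1 encode enzymes that act on nucleic acids or their building blocks and that restrict retroviruses and retrotransposons. They were taken as the rows of the deposited array table whose annotation gave exactly 1 gene symbol, with that symbol being APOBEC3A, APOBEC3B, APOBEC3C, APOBEC3D, APOBEC3F, APOBEC3G, APOBEC3H or SAMHD1. All 8 genes were found, on 9 rows of the 36176 rows with 1 symbol (8 of 33616 genes), and APOBEC3A had 2 rows. The values came from HCN-2, a human cortical neuronal cell line grown with serum. Its cells were transfected either with a mimic of miR-140-3p or miR-126-5p or with a scrambled RNA as control, and each of the 3 groups had 3 arrays, 9 in all. Each transfection used 3 μL of 20 μM RNA, and total RNA was harvested 24 h later. All groups received the same transfection reagent and came from 1 cell line. A group of untransfected cells was not analysed here, so the level before transfection is not known. Below, a gene that fell was lower with a mimic than with the scrambled RNA. Whether the mimic lowered such a gene or the scrambled RNA raised it was not tested.

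APOBEC3 proteins are cytidine deaminases that turn cytosine into uracil in single-stranded DNA, which scars or blocks newly copied retroviral genomes. The human genes lie side by side on chromosome 22 and arose by repeated duplication, so they resemble each other closely in sequence. SAMHD1 acts earlier, by hydrolysing the deoxynucleoside triphosphates that reverse transcription needs, and its inherited loss causes Aicardi-Goutières syndrome, an inflammatory disease with raised interferon in which the brain is affected. Several of these genes are known to respond to interferons in other cells.

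The mature sequences of the 2 transfected microRNAs are shown to set the agents apart, with the seed, bases 2 to 8 from the 5′ end, in capitals. They were taken from RefSeq (GRCh38.p14), at chr16:69933142-69933162 and chr9:136670616-136670636, both on the plus strand.
hsa-miR-140-3p: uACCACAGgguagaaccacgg
hsa-miR-126-5p: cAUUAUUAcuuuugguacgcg
Their seeds differ. Sites of the seeds in the members' transcripts were not searched.

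The deposited values are log2 signals from RMA, a method that corrects background, normalizes arrays to each other and summarizes probes. Values of different rows come from different probes, so differences between groups are taken within a row. Setting a row against the median row or the background control rows is only a rough guide to its level. The background control rows averaged 3.67 to 3.89 per array, and the median of the rows with 1 symbol was at 5.67. Of the neuronal markers 10 were measured, and 2 of them, MAP2 and NEFM, lay above the median row, whereas RBFOX3, SYN1, DCX and STMN2 did not. Of 7 measured markers of fibroblasts and mesenchyme, 6 lay above it, as did 5 of 11 leukocyte markers. The mean of the neuronal markers was 5.96 to 6.18 in miR-140-3p cells, 5.96 to 5.98 in miR-126-5p cells and 5.99 to 6.19 in control cells. That of the mesenchymal markers was 15.50 to 15.64, 15.42 to 15.47 and 15.45 to 15.67 in the same order, and that of the leukocyte markers was 5.38 to 5.54, 5.28 to 5.36 and 5.35 to 5.46. In none of the 3 lists did a marker pass the adjusted p in limma in a comparison, with 10, 7 and 11 genes measured. In these bulk samples, fewer cells of a type and less RNA per cell cannot be told apart. Whether the 3 arrays per group had separate cultures as their source is not stated, so p-values may measure only technical spread, and the number of arrays limits the precision.

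SAMHD1 was the member called lower than the scrambled control with both mimics. Its log2 values were 12.17, 11.48 and 12.03 on the miR-140-3p arrays, 11.21, 11.51 and 12.13 on the miR-126-5p arrays, and 14.32, 14.76 and 14.96 on the scrambled control arrays. All 6 mimic arrays lay below all 3 control arrays, and the mimic arrays overlapped each other. In miR-140-3p cells SAMHD1 fell by 2.79 in log2 units (standard error 0.26, 95% confidence interval -3.36 to -2.22), a signal 6.91-fold lower than in the control, with an adjusted p of 0.00056 in limma. In miR-126-5p cells it fell by 3.06 (standard error 0.26, interval -3.64 to -2.49), or 8.36-fold, with an adjusted p of 0.000215. By p it ranked 10 and 9 among the 36176 rows. Its mean level was 11.89 ± 0.36 in miR-140-3p cells, 11.62 ± 0.47 in miR-126-5p cells and 14.68 ± 0.33 in control cells (SD, n = 3 each), so the control was highest and miR-126-5p lowest. The neighbours in that order, the 2 mimics, were 0.28 apart with an interval of -0.30 to 0.85 (adjusted p = 0.794). Both calls were lost when the variances were not moderated across rows, where the adjusted p was 0.214 for miR-140-3p and 0.119 for miR-126-5p.

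APOBEC3G, the member best known for restricting HIV-1, and the target of the viral protein Vif, came next in the size of the difference. Its log2 values were 8.84, 8.14 and 8.24 on the miR-140-3p arrays, 8.41, 7.96 and 8.86 on the miR-126-5p arrays, and 9.24, 9.80 and 10.07 on the control arrays. Both groups of mimic arrays lay below all control arrays. The difference from the control was -1.30 for miR-140-3p (adjusted p = 0.127 in limma) and -1.29 for miR-126-5p (adjusted p = 0.0952), each with a standard error of 0.28, so neither passed the adjusted threshold. The difference between the mimics was -0.0047 with an interval of -0.61 to 0.60. SAMHD1 and APOBEC3G also stand on the list of genes lower with both mimics that the study made from these samples, so their presence there is no independent evidence.

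APOBEC3F, which like APOBEC3G enters virus particles and is countered by Vif, had log2 values of 11.19, 10.93 and 11.16 on the miR-140-3p arrays, 10.72, 10.37 and 11.04 on the miR-126-5p arrays, and 10.91, 12.30 and 12.34 on the control arrays. Control replicate 1 lay among the mimic arrays and the other 2 control arrays lay above all of them. The difference was -0.76 for miR-140-3p (adjusted p = 0.548) and -1.14 for miR-126-5p (adjusted p = 0.235), with a standard error of 0.33. APOBEC3D, a further member that Vif targets, had 10.79, 10.55 and 10.97 on the miR-140-3p arrays, 10.27, 10.24 and 10.70 on the miR-126-5p arrays, and 9.95, 11.66 and 11.94 on the control arrays. Here control replicate 1 was the lowest of the 9 arrays and the other controls were the highest. The difference was -0.41 for miR-140-3p (adjusted p = 0.815) and -0.78 for miR-126-5p (adjusted p = 0.532), each with a standard error of 0.40.

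APOBEC3C, a single-domain enzyme with weak activity against HIV-1, had log2 values of 15.26, 15.14 and 15.20 on the miR-140-3p arrays, 14.48, 14.46 and 14.93 on the miR-126-5p arrays, and 13.98, 15.93 and 15.80 on the control arrays. As for APOBEC3D, the control spanned the whole range of the mimic arrays, with replicate 1 at its lower end. The difference was -0.04 for miR-140-3p (adjusted p = 0.99) and -0.61 for miR-126-5p (adjusted p = 0.641), with a standard error of 0.40. Every miR-140-3p array lay above every miR-126-5p array for this gene, by 0.57 on average, with an interval of -0.29 to 1.43 (adjusted p = 0.692).

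The remaining members lay low on these arrays. APOBEC3B, a mostly nuclear deaminase that mutates the DNA of many tumours, had 3.83, 3.95 and 3.46 on the miR-140-3p arrays, 3.87, 3.67 and 4.18 on the miR-126-5p arrays, and 3.69, 3.90 and 3.86 on the control arrays, all close to the background control rows. APOBEC3A, a potent deaminase of myeloid cells, was as low on its first row, which ran from 3.54 to 4.01 on the miR-140-3p arrays, from 3.49 to 3.83 on the miR-126-5p arrays and from 3.53 to 3.87 in the control. Its second row had 4.03, 4.00 and 4.14 on the miR-140-3p arrays, 4.65, 4.20 and 4.48 on the miR-126-5p arrays, and 4.20, 4.22 and 4.20 on the control arrays. On that row the miR-140-3p arrays lay below both other groups, with a difference of -0.15 against the control (adjusted p = 0.834) and of -0.39 against miR-126-5p (unadjusted p = 0.0337, adjusted p = 0.522 in limma), while the first row gave 0.11 and 0.10, so the 2 rows did not move alike. APOBEC3H, a member that differs in stability between people, had 5.01, 4.38 and 4.45 on the miR-140-3p arrays, 4.32, 3.88 and 4.30 on the miR-126-5p arrays, and 4.48, 4.30 and 4.97 on the control arrays. Its groups overlapped with the control, with differences of 0.03 and -0.42 (adjusted p = 0.986 and 0.568). Values this close to the background leave little room for a lower level to be seen.

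**Figure D1:**
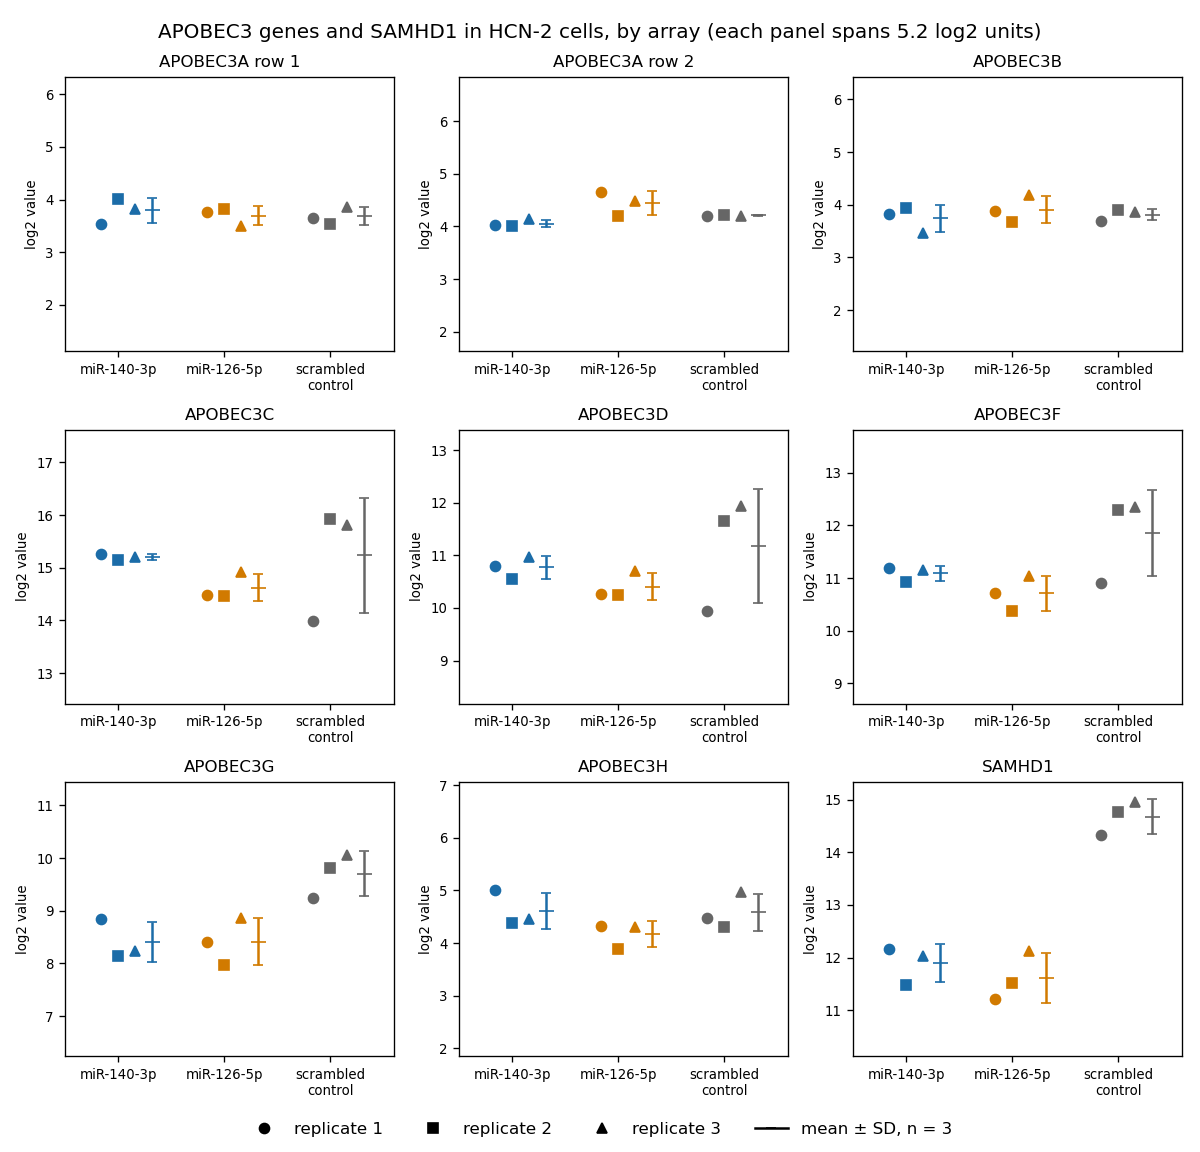
Log2 values (vertical axis) of the 9 member rows on each of the 9 arrays, by transfection group. Points are arrays, with a marker per replicate number, and bars are the mean ± SD of 3 arrays. SAMHD1 and APOBEC3G are lower on every mimic array than on every control array, and control replicate 1 sits below the other controls for APOBEC3C, APOBEC3D and APOBEC3F.

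By the adjusted p of 0.05, 1 member row of 9 fell with miR-140-3p, against 0.229% of all rows tested, and 1 of 9 fell with miR-126-5p, against 0.354%. In both comparisons the row was that of SAMHD1, and 0 member rows rose. At the study's thresholds, which ask for an unadjusted p under 0.05 and for a minimum fold, 3 rows were lower with miR-140-3p (SAMHD1, APOBEC3G and APOBEC3F), against 5.16% of all rows. The same 3 were lower with miR-126-5p, against 6.83% of all rows. APOBEC3F left that count for miR-140-3p without any 1 of the 3 miR-140-3p arrays or without control replicate 2 or 3, where its unadjusted p reached 0.163. It also left it after quantile normalization again (unadjusted p = 0.0512) and without moderated variances (0.121). Arrays did not overlap, with the mimic lower, for 3 member rows with miR-140-3p, against 7.48% of all rows, and for 2 with miR-126-5p, against 11.0%. The median member row differed by -0.15 with miR-140-3p, where all rows had -0.02, and by -0.61 with miR-126-5p, where all rows had -0.04. Both comparisons use the same control arrays.

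Between the mimics, 0 member rows passed the adjusted p in limma, and 0% of all rows did. At the unadjusted thresholds 1 member row, the second of APOBEC3A, passed, against 9.06% of all rows. For 3 member rows the arrays of the mimics did not overlap, namely APOBEC3C and APOBEC3H, higher with miR-140-3p, and the second APOBEC3A row, lower with it, against 15.7% of all rows. The members' median was 0.28 and that of all rows 0.02.

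**Figure D2:**
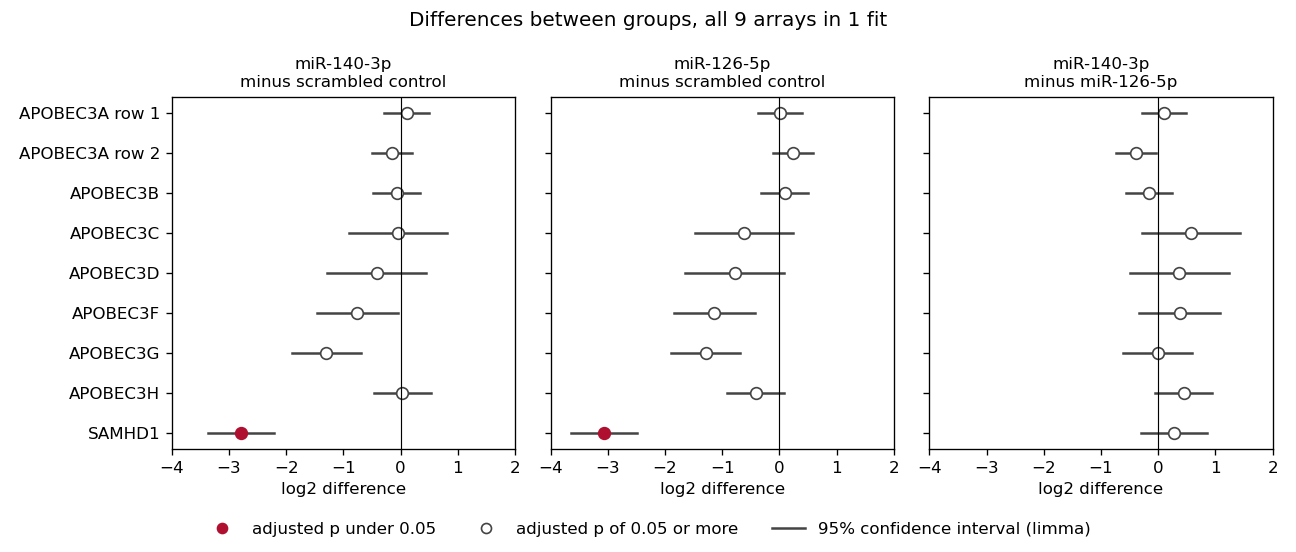
Log2 difference (horizontal axis) of each member row for the 2 mimics against the scrambled control and against each other, from 1 limma fit of 9 arrays. Points are estimates, filled where the adjusted p was under 0.05, and bars are 95% confidence intervals. The filled points are those of SAMHD1, at -2.79 and -3.06.

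One control array stood apart for part of the APOBEC3 cluster. Control replicate 1 differed from the mean of control replicates 2 and 3 by -1.89 for APOBEC3C, -1.86 for APOBEC3D, -1.41 for APOBEC3F, -0.70 for APOBEC3G and -0.54 for SAMHD1. The median over all rows was -0.08, and of the 18088 rows above the median row, 469 (2.59%) were lower in control replicate 1 by more than 1. CBX6, a Polycomb subunit whose gene precedes the cluster, showed a similar gap of -1.64. The gap was smaller for NPTXR, a receptor for neuronal pentraxins on that same side, at -0.63, and for CBX7, a Polycomb subunit on the other side, at -0.63. FUNDC2P4, also on the other side, had 0.03. Around SAMHD1 on chromosome 20, RPS3AP3 had -0.61, RN7SL156P -0.34, RBL1 0.04 and MTCL2 0.37, so gaps of the size of NPTXR and CBX7 were also seen away from the cluster.

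Without control replicate 1, every mimic array lay below both remaining controls for APOBEC3C, APOBEC3D, APOBEC3F, APOBEC3G and SAMHD1. With miR-126-5p all 5 then passed, with APOBEC3C at -1.24 (adjusted p = 0.0104 in limma), APOBEC3D at -1.40 (0.00938), APOBEC3F at -1.61 (0.00388), APOBEC3G at -1.53 (0.0325) and SAMHD1 at -3.24 (0.000248). With miR-140-3p 2 passed, SAMHD1 at -2.97 (adjusted p = 0.000619) and APOBEC3F at -1.23 (0.0354), whereas APOBEC3G had -1.53 (0.0529), APOBEC3D -1.03 (0.0958) and APOBEC3C -0.67 (0.304). Of all rows, 0.329% were then called lower for miR-140-3p, and 0.799% for miR-126-5p. That array was singled out because it was low for these genes, so larger differences and a smaller spread follow from leaving it out, and these p-values are no independent support. Leaving out another control moved the differences the other way. For miR-126-5p, APOBEC3C had -0.27 without control replicate 2 (adjusted p = 0.848) and -0.33 without control replicate 3 (0.914), APOBEC3D had -0.54 (0.686) and -0.40 (0.876), APOBEC3F had -0.92 (0.391) and -0.89 (0.617), and APOBEC3G had -1.24 (0.236) and -1.11 (0.378). For miR-140-3p, APOBEC3C had 0.31 and 0.24, APOBEC3D -0.17 and -0.03, APOBEC3F -0.54 and -0.51, and APOBEC3G -1.25 and -1.11, none of which passed. In each such fit the control rests on 2 arrays. Nothing in the labels sets control replicate 1 apart, and what sets it apart was not tested.

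**Figure D3:**
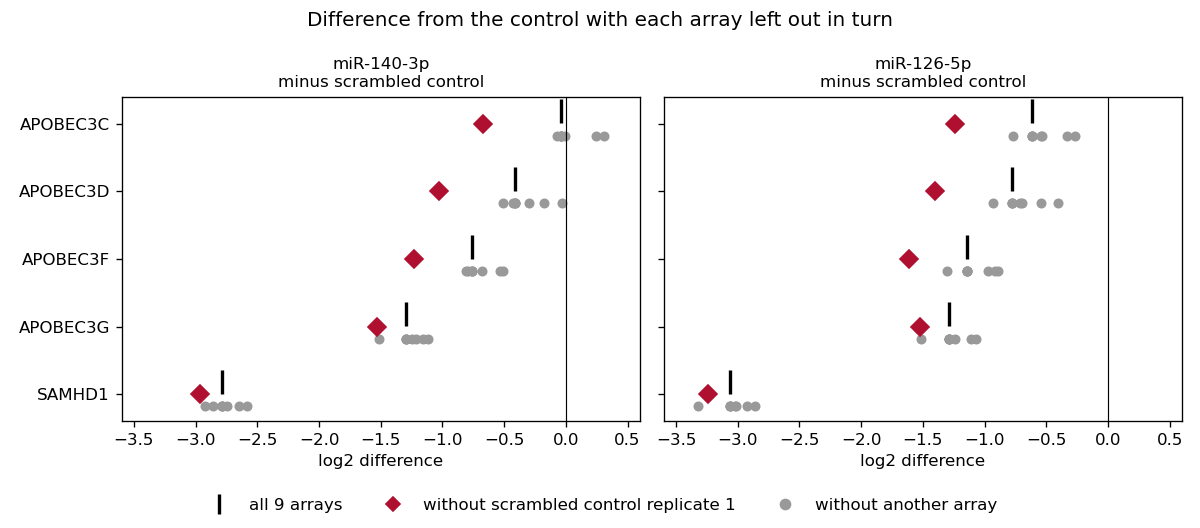
Log2 difference from the scrambled control (horizontal axis) for APOBEC3C, APOBEC3D, APOBEC3F, APOBEC3G and SAMHD1 with each array left out in turn. Black ticks are the fit of all 9 arrays, red diamonds the fit without control replicate 1 and grey points the fits without another array. The red diamonds for APOBEC3C lie at -0.67 and -1.24, far to the left of the ticks at -0.04 and -0.61.

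Because the APOBEC3 genes are near-identical copies in places and the probe sequences were not used here, rows of neighbouring members may share signal, and the values of APOBEC3C, APOBEC3D, APOBEC3F and APOBEC3G are uncertain as separate measurements. The order of the members on chromosome 22 in RefSeq is APOBEC3A, APOBEC3B, APOBEC3C, APOBEC3D, APOBEC3F, APOBEC3G and APOBEC3H. RefSeq also lists an entry named APOBEC3A_B before APOBEC3A, which is not a member. The antisense gene APOBEC3B-AS1 within the cluster had 2 rows, with differences of -0.02 and -0.10 for miR-140-3p and of 0.41 and 0.20 for miR-126-5p. The pseudogene APOBEC3AP1, which was not among the APOBEC3 genes of RefSeq on chromosome 22, had 0.23 and 0.04 for the 2 mimics. None of these rows passed the adjusted p in limma (lowest 0.594).

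The nearest measured genes outside the cluster did not pass either. CBX6 differed by 0.56 for miR-140-3p (adjusted p = 0.706) and by -0.01 for miR-126-5p (adjusted p = 0.998), and NPTXR by 0.18 and -0.19. Without control replicate 1 CBX6 had 0.0099 and -0.55 (adjusted p = 0.995 and 0.281) and NPTXR -0.03 and -0.40 (adjusted p = 0.981 and 0.458). On the far side CBX7 differed by -0.24 and -0.11 (-0.45 and -0.32 without that array), and FUNDC2P4 by 0.28 and -0.23. Around SAMHD1 on chromosome 20, RBL1, a pocket protein of the retinoblastoma family, differed by -0.23 and -0.12 and MTCL2, a microtubule-associated protein, by -0.28 and 0.10, while RN7SL156P had 0.01 and 0.43 and RPS3AP3 had -0.05 and 0.51. The lowest adjusted p among these 8 neighbours was 0.386 in limma with all arrays, and 0.281 without control replicate 1.

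Genes outside the members were compared with SAMHD1, each by its row with 1 symbol and the highest mean. Those whose values tracked SAMHD1 most closely over the 9 arrays were PARP14, USP41P and OAS3 (Pearson's r 0.997, 0.996 and 0.996). These r are a description over arrays that include the control and both mimics. PARP14 is a mono-ADP-ribosyltransferase, and OAS3 makes the oligoadenylates that activate RNase L. PARP14 averaged 14.31 on the miR-140-3p arrays, 14.16 on the miR-126-5p arrays and 16.55 on the control arrays. It fell by 2.24 for miR-140-3p (adjusted p = 0.0011 in limma) and fell by 2.39 for miR-126-5p (adjusted p = 0.000467). OAS3 averaged 7.53, 6.99 and 11.81 in the same groups and differed from the control by -4.28 and -4.82 (adjusted p = 0.000649 and 0.000215). USP41P averaged 6.50, 5.92 and 11.13 and differed by -4.63 and -5.21 (adjusted p = 0.000771 and 0.00024).

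The promoter windows of SAMHD1 and of PARP14, the gene most like it, are shown because both fell with both mimics. They run from 250 bases before to 50 after the RefSeq start site (GRCh38.p14), SAMHD1 at chr20:36951659-36951958 on the minus strand and PARP14 at chr3:122680589-122680888 on the plus strand. Capitals mark a match to the interferon-stimulated response element.
SAMHD1: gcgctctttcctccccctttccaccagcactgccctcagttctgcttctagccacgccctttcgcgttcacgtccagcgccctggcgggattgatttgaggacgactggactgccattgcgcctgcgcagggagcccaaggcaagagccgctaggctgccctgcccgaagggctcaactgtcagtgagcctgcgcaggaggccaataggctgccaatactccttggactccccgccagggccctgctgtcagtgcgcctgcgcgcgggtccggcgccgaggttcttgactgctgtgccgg
PARP14: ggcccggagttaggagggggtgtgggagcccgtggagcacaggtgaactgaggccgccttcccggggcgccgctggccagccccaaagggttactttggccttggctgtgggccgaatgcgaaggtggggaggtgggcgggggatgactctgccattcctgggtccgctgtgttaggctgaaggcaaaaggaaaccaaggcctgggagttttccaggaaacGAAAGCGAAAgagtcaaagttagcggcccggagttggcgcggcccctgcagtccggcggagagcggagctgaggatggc
The motifs searched, on both strands, were GAAA followed by any 2 bases and GAAA for that element, AANNGAAAC for the core bound by interferon regulatory factors, and TTCNNNGAA for the gamma-activated site, of which the first and second can overlap. They occurred in 3.57%, 5.21% and 7.66% of 35116 promoter windows of this length. The SAMHD1 window held none of them, and its GC content was 65.7%, against a median of 58.7% over all windows. PARP14 held GAAAGCGAAA at position -29 from the start site, a core match at -64 and a gamma-activated site at -40. Of the 8 members, SAMHD1 and APOBEC3H had an entry, and the APOBEC3H window held the core match AAGTGAAAC at position 29. A match is a description of the letters only, and a window with no match says nothing of a factor.

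Related genes were read from 9 lists. Of 12 other restriction factors of retroviruses, 4 fell with each mimic, the same 4 in both, and 0 rose. MX2, a GTPase that blocks nuclear entry of HIV-1, had 3.65, 3.10 and 3.17 on the miR-140-3p arrays, 3.41, 3.18 and 3.29 on the miR-126-5p arrays, and 5.35, 5.89 and 6.14 on the control arrays. All 6 mimic arrays lay below the mean of the background control rows on the same array, so the size of the difference is uncertain. The measured differences were -2.49 for miR-140-3p and -2.50 for miR-126-5p (adjusted p = 0.000359 and 0.000238 in limma). BST2, or tetherin, which holds budding virus on the cell, had 7.28, 6.50 and 6.94 on the miR-140-3p arrays, 5.77, 5.58 and 7.18 on the miR-126-5p arrays, and 9.25, 9.46 and 10.07 on the control arrays, with differences of -2.69 and -3.42 (adjusted p = 0.00714 and 0.000876). MOV10, an RNA helicase that is packaged into virus particles, had differences of -1.51 and -1.71 (adjusted p = 0.00649 and 0.0017), and TRIM22, a ubiquitin ligase, of -1.36 and -1.44 (adjusted p = 0.0146 and 0.00708). For miR-140-3p the calls of TRIM22 and BST2 were lost in 4 and 3 of 9 fits that each left out 1 array. TRIM22 lost it without miR-140-3p replicate 2 or 3 or without control replicate 2 or 3 (highest adjusted p 0.105), and BST2 without miR-140-3p replicate 2 or control replicate 2 or 3 (highest 0.0585). For miR-126-5p the call of TRIM22 was lost without miR-126-5p replicate 1 or 2 or without control replicate 2 (highest 0.057), and those of MX2, BST2 and MOV10 held in all 9. The list's median was -0.69 for miR-140-3p and -0.92 for miR-126-5p. TRIM5, which binds incoming capsids, differed by -1.44 and -1.25 without passing (adjusted p = 0.0907 and 0.129).

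In the supply and breakdown of deoxynucleotides, the pathway of SAMHD1 itself, 1 of 19 measured genes fell with each mimic and 0 rose. Of all rows, 0.229% and 0.354% fell with the 2 mimics. The gene of this list that fell was CMPK2, a mitochondrial nucleotide kinase, with 4.48, 4.87 and 4.86 on the miR-140-3p arrays, 4.64, 4.73 and 5.35 on the miR-126-5p arrays, and 7.52, 7.89 and 8.63 on the control arrays. Its groups were clear of the control, and the differences were -3.28 and -3.11 (adjusted p = 0.00024 in limma in both). The list's medians were -0.17 and -0.20. At the unadjusted thresholds 1 gene of the list was lower and 1 higher for miR-140-3p, and 5 were lower and 1 higher for miR-126-5p. Of all rows, 5.16% were lower at these thresholds for miR-140-3p and 6.83% for miR-126-5p. RRM1, the large subunit of ribonucleotide reductase, which makes the deoxynucleotides SAMHD1 degrades, differed by 0.63 and 0.47 without passing (adjusted p = 0.29 and 0.358). Of 7 genes for kinases, their regulators and a phosphatase that act on SAMHD1, 0 passed in limma with either mimic (medians -0.02 and -0.19). At the unadjusted thresholds 1 was higher for miR-140-3p, whereas 2 were lower and 1 was higher for miR-126-5p. Of all rows, 3.35% were higher at these thresholds for miR-140-3p and 3.57% for miR-126-5p. Of 9 genes for the repair of uracil in DNA, the step after deamination, 0 passed (medians -0.01 and -0.23), with 1 lower and 1 higher at the unadjusted thresholds for miR-140-3p and 1 lower for miR-126-5p.

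Of the adenosine deaminases that edit RNA, 3 were measured. ADARB1, which edits glutamate receptor transcripts, had 11.32, 11.27 and 11.32 on the miR-140-3p arrays, 10.78, 10.69 and 11.23 on the miR-126-5p arrays, and 11.77, 11.98 and 11.91 on the control arrays. All mimic arrays lay below the control, and it fell by 0.98 for miR-126-5p (adjusted p = 0.0298 in limma), with -0.59 for miR-140-3p (adjusted p = 0.366). The call of ADARB1 held in 3 of 9 fits that left out 1 array, and was lost without miR-140-3p replicate 2 or 3, without miR-126-5p replicate 1 or 2 and without control replicate 2 or 3 (highest adjusted p 0.195). ADAR, which marks self RNA and is itself mutated in Aicardi-Goutières syndrome, had 12.27, 11.97 and 11.81 on the miR-140-3p arrays, 11.53, 11.27 and 12.12 on the miR-126-5p arrays, and 12.42, 13.63 and 13.54 on the control arrays. Its differences of -1.18 and -1.55 did not pass (adjusted p = 0.277 and 0.0643), and control replicate 1 was again the lowest control. For miR-140-3p it passed when that array was left out (adjusted p = 0.0227) and in no other such fit, and for miR-126-5p when either that array or miR-126-5p replicate 3 was left out. The other measured members of the AID and APOBEC family, APOBEC1 and APOBEC4, lay below the median row and did not pass (lowest adjusted p 0.71 and 0.871).

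Of 6 other measured genes of Aicardi-Goutières syndrome, 1 fell with each mimic, against 0.229% and 0.354% of all rows. The gene was IFIH1, a sensor of double-stranded RNA, with 11.50, 11.27 and 11.52 on the miR-140-3p arrays, 10.62, 10.51 and 11.91 on the miR-126-5p arrays, and 14.22, 14.55 and 15.01 on the control arrays. The differences were -3.16 and -3.58 (adjusted p = 0.000888 and 0.00024 in limma). Of 7 measured genes of the pathway that senses cytosolic DNA, 0 passed (medians -0.20 and -0.32). At the unadjusted thresholds 1 of them was lower for miR-140-3p, against 5.16% of all rows, and 2 for miR-126-5p, against 6.83%.

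Of 3 measured transcription factors that interferons activate, IRF7, which drives interferon transcription, fell with both mimics, at -1.51 for miR-140-3p and -1.82 for miR-126-5p (adjusted p = 0.0254 and 0.00436 in limma). For miR-140-3p this call held in 3 of 9 fits that left out 1 array, and was lost without miR-140-3p replicate 2 or 3, miR-126-5p replicate 1 or 2 or control replicate 2 or 3 (highest adjusted p 0.155), whereas for miR-126-5p it held in all 9. IRF9, the DNA-binding subunit of the factor that type I interferons activate, had 13.64, 12.71 and 13.04 on the miR-140-3p arrays, 11.60, 11.94 and 12.98 on the miR-126-5p arrays, and 14.33, 14.84 and 14.92 on the control arrays. It fell by 2.53 for miR-126-5p (adjusted p = 0.00334) and differed by -1.57 for miR-140-3p (adjusted p = 0.123), and the mimics were 0.96 apart (adjusted p = 0.475). Without miR-126-5p replicate 3, IRF9 passed for miR-140-3p too (adjusted p = 0.0273). IRF1, a further activator of interferon-stimulated genes, differed by -1.003 and -0.92 without passing (adjusted p = 0.157 and 0.163). Between the mimics 0 genes of any list passed in limma, where 3279 of the 36176 rows with 1 symbol had an unadjusted p under 0.05. The genes that fell in these lists also stand on the study's own list from these samples, so their direction is not independent evidence.

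**Figure D4:**
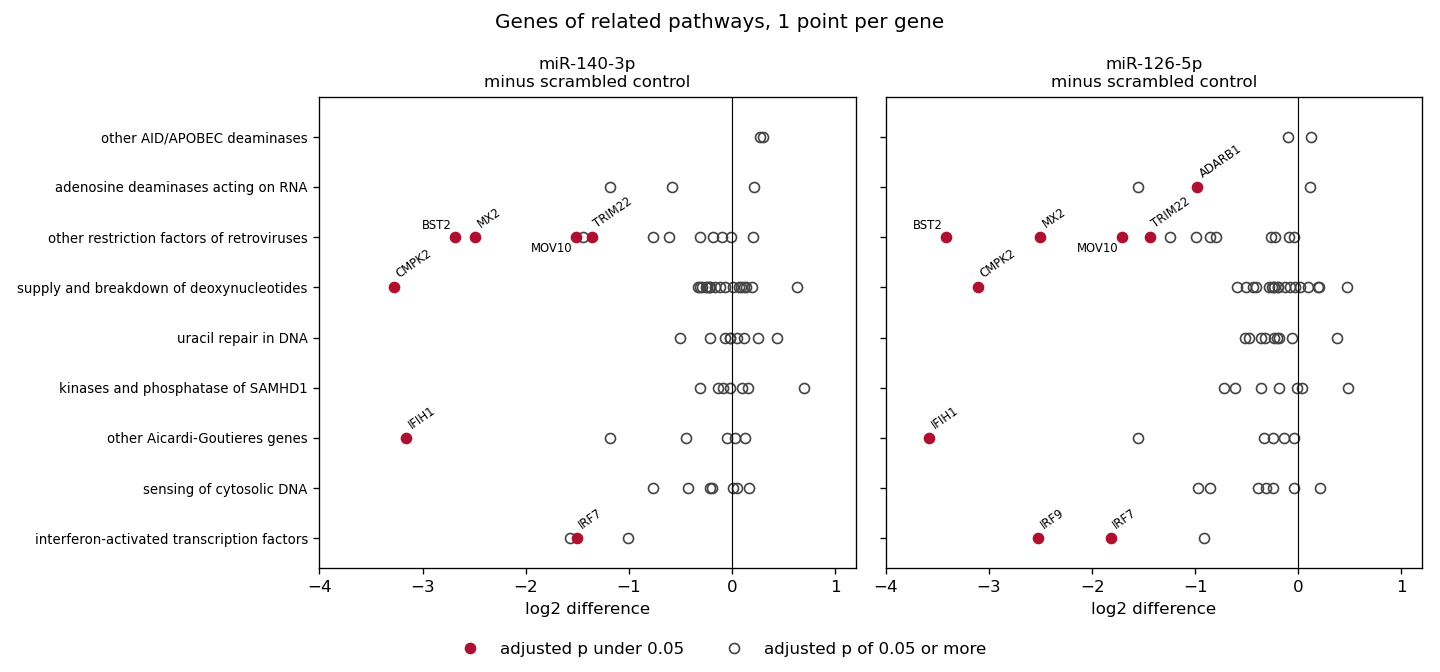
Log2 difference from the scrambled control (horizontal axis) of the measured genes of 9 related lists, for miR-140-3p and miR-126-5p, with 1 point per gene and list. Filled and named points had an adjusted p under 0.05 in limma. They lie to the left of 0 in both panels, from -0.98 for ADARB1 to -3.58 for IFIH1 with miR-126-5p.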

How the data were processed

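Total RNA of 9 HCN-2 samples was measured on Affymetrix Clariom arrays. The methods name Clariom S chips and the labels Clariom D chips with amplification of the RNA. The authors deposited log2 values in 1 table, and the submitters' notes on processing list RMA, Partek and Affymetrix Expression Console, without versions. RMA scales arrays to each other, which removes changes shared by most genes. The values hold no detection calls. Array medians over all rows were 4.96 to 5.09.

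Of 138745 rows, 31 control rows were left out and 36176 had 1 symbol in the platform annotation, 1119 several, and 101419 were not listed and not named. Groups came from the labels, which give no batch. All 9 arrays entered 1 fit in limma 3.58.1 and R 4.3.3 (two-sided, by lmFit then eBayes), with Benjamini-Hochberg adjustment over the 36176 rows and calls at an adjusted p of 0.05. The script was tested on simulated data. For a listed gene, the row with the highest mean stands for it. Named were all members, list genes passing the adjusted p with a mimic, the 2 nearest measured genes on each side, and the 3 genes most like a called member. TRIM5, RRM1, ADAR, IRF1, APOBEC1, APOBEC4 and the markers named as high or low were added after their values were seen. Members and lists were chosen with earlier results of these data known. Alternatives were centring, quantile normalization, variance moderation, samples per fit, rows tested, the replicate number as a block and leaving out each array.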

Additional observations from a re-analysis of the deposited data

How the results depend on the processing

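The fall of SAMHD1 kept its direction and call under all alternatives except the fit without moderated variances, with adjusted p in limma of 4.11e-05 to 0.00999 otherwise with miR-140-3p and 1.36e-05 to 0.00407 with miR-126-5p. Without moderation, 0 members, 0 related genes and 0 of all tested rows with 1 symbol passed with either mimic. With all 9 arrays 1 member passed per mimic, with 7 and 9 related genes and 86 and 137 rows in either direction. With miR-126-5p, 2 members passed with a variance trend and robust estimation and 2 when dim rows were left out. The second was APOBEC3G (adjusted p = 0.0424 and 0.042). These settings gave 214 and 226 rows. At the unadjusted thresholds, quantile normalization again and no moderation each left 2 members of 3 with miR-140-3p, without APOBEC3F. Testing every row of the table left 55 rows and 3 related genes with miR-140-3p. Between the mimics, members at the unadjusted thresholds numbered 0 with trend and robust estimation, 0 without dim rows and 2 with 2 groups per fit. In the fit described above, 5.16% of all rows were lower at these thresholds with miR-140-3p, and 9.06% passed between the mimics.

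Leaving out each array in turn gave 1 to 2 members past the adjusted p with miR-140-3p and 1 to 5 with miR-126-5p. Counts at the unadjusted thresholds were 2 to 5, 3 to 5 and, between the mimics, 0 to 2. Rows ranged from 46 to 124 with miR-140-3p and from 80 to 304 with miR-126-5p, and related genes from 4 to 8 and from 7 to 13. The highest counts of members and rows came without control replicate 1 (2 members and 124 rows for miR-140-3p, 5 members and 304 rows for miR-126-5p). For miR-140-3p, 46 to 52 rows were left without miR-140-3p replicate 2 or 3 or control replicate 2 or 3. For miR-126-5p, 80 to 83 were left without miR-126-5p replicate 1 or 2 or control replicate 3. The related genes numbered 4 for miR-140-3p without miR-140-3p replicate 2 or control replicate 2 or 3. Between the mimics, the unadjusted count was 0 without miR-140-3p replicate 1 or miR-126-5p replicate 1 or 3. APOBEC3C with miR-140-3p, which did not pass, ran from -0.67 without control replicate 1 to 0.31 without another control.

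Over all rows with 1 symbol, deviations of same-numbered arrays from their group means were little correlated (r of -0.0609 to 0.107 over 9 pairs). Differently numbered arrays were not compared, and a shared effect on few genes would leave r low. Pairing by number was therefore not excluded. With the replicate block, SAMHD1 had adjusted p of 0.000615 and 0.00023, and 1, 1 and 0 members passed in the 3 comparisons. With 3 arrays per group and no detection calls, small differences in APOBEC3A, APOBEC3B and APOBEC3H, near the background, could not be resolved.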
